A study of Caenorhabditis elegans with 30 samples.

Results

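Argonaute genes of *Caenorhabditis elegans* were followed through a study of oomycete recognition, with 10 genes described here out of 19988 with a gene assignment in the files. They were chosen by name: *vsra-1*, the argonaute raised by oomycete extract, and 9 others that stand for the germline (*csr-1*, *hrde-1*, *prg-1*, *ergo-1*), for sperm (*alg-3*, *alg-4*) and for the soma (*nrde-3*, *alg-1*, *alg-2*). All 10 passed the filter on low counts in every comparison. RNA of whole animals at the fourth larval stage (L4) made up 30 libraries in 10 groups of 3, from bleached embryos grown at 20 °C on *E. coli* OP50, sequenced by BGI and Novogene without a label for which company read which library. Wild-type N2, the *old-1(ok1273)* mutant and the *flor-1(icb93)* mutant were each sequenced untreated and after *Myzocytiopsis humicola* extract, which animals recognize as a sign of the pathogen. *old-1* encodes a receptor tyrosine kinase and *flor-1* a pseudokinase of the same family. Animals labelled *old-1p::old-1* carried the extrachromosomal array icbEx308, with *old-1* fused to GFP under its own promoter, a *bus-1p::GFP* marker and the plasmid pBJ36, together with icbIs4. Their controls are labelled as non-transgenic N2(icbIs5) siblings, so the label of the integrated transgene differs between these groups. Animals labelled *dpy-7p::old-1* carried the array icbEX359, in which the *dpy-7* promoter, active in the epidermis, drives *old-1*, and their controls carried icbEx360. Both of these arrays hold the hygromycin resistance plasmid PIP1303F and pBJ36. The extract, old-1p::old-1 and dpy-7p::old-1 experiments each have their own controls, and nothing in the labels says that replicates were separate cultures, so p-values measure only the spread between these libraries, which may be technical.

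Argonautes are the proteins that hold a small RNA and use it to find matching transcripts, which are then cut, silenced or, for some, protected. Worms have an expanded family: AGO-like proteins that carry microRNAs or longer primary small RNAs, a Piwi protein that carries piRNAs in the germline, and a worm-specific branch that mostly carries short secondary small RNAs made by RNA-dependent RNA polymerases. *vsra-1* (versatile small RNAs argonaute, sequence name C04F12.1) belongs to the worm-specific branch. Many argonautes are transcribed mainly in germ cells, so their level in whole animals also follows how much germline, sperm and oocyte tissue the animals hold.

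The libraries held 19214839 to 38956390 estimated counts each. Marker lists for germline tissue and yolk differed between libraries of the same label. A list of 14 oocyte and yolk genes includes the yolk genes *vit-2* to *vit-6*, so it is not a measure of germline alone. Its summed level was 36.0 TPM (counts scaled by transcript length and library total) in untreated N2 replicate A, 289 in B and 474 in C. The N2 extract libraries had 31.7 to 33.7 TPM, and *vit-5* was listed there at 0 counts. For 13 spermatogenesis genes, all detected in every library, the sum was 110.0, 1233 and 1611 TPM in untreated N2 A, B and C and 127 to 167 after extract. Among *old-1p::old-1* libraries, replicate A had 1272 TPM of oocyte and yolk markers where B and C had 11081 and 14304, and among the siblings replicate C had 293 TPM where the others had 3624 and 4113. Calls of the argonautes in N2 and in *old-1p::old-1* are given with and without these libraries. Counts of small RNA genes are given with and without untreated N2 B and C and *old-1p::old-1* A, but not without sibling C. The level of *old-1* itself was 0.312 to 0.702 TPM in the mutant, 0.880 to 2.03 TPM in N2 and 26.9 to 46.8 TPM in the overexpression strains. The siblings, labelled N2(icbIs5), had 0.325 to 0.542 TPM of *old-1*, inside the range of the mutant. The hygromycin controls had 0.577 to 0.878 TPM, which overlaps that range. A figure legend of the study describes the array icbEx308 on an *ok1273* mutant background. The strain entry for this array names no *old-1* allele, and the labels name none for the siblings. Whether either set of controls carries a wild-type *old-1* was not tested. *flor-1* transcripts were present in *flor-1(icb93)* at 10.96 to 14.6 TPM, against 15.2 to 33.4 TPM in N2. The study's strain list gives *flor-1(icb93)* together with the reporter icbIs5 where the labels name the allele alone, so differences of this mutant from N2 that belong to the allele and to the reporter cannot be told apart. Fragments of the *flor-1(icb93)* libraries were shorter than all others, by the difference between transcript length and effective length (154.6 to 165.4 bases against 239.8 to 273.4).

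*vsra-1* changed from a minor argonaute to the most abundant of the 10 when N2 animals met the extract. The gene (WBGene00007297) lies at I:9673664-9678557 on the minus strand of WBcel235 and has 1 annotated transcript in the files. Its level was 5.28, 5.69 and 5.80 TPM in untreated N2 and 148.9, 148.8 and 148.7 TPM in N2 with extract, a ratio of group means of 26.6. The 3 extract libraries lie within a fraction of a TPM of each other and far above all untreated libraries, including replicate A, whose oocyte and yolk sum is the closest to theirs. The fitted log2 fold change was 4.66 ± 0.07 (SE) with all libraries and 4.84 without untreated N2 B and C. Because *vsra-1* was chosen for this induction, the value is a description and no test is attached to it.

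**Figure D1:**
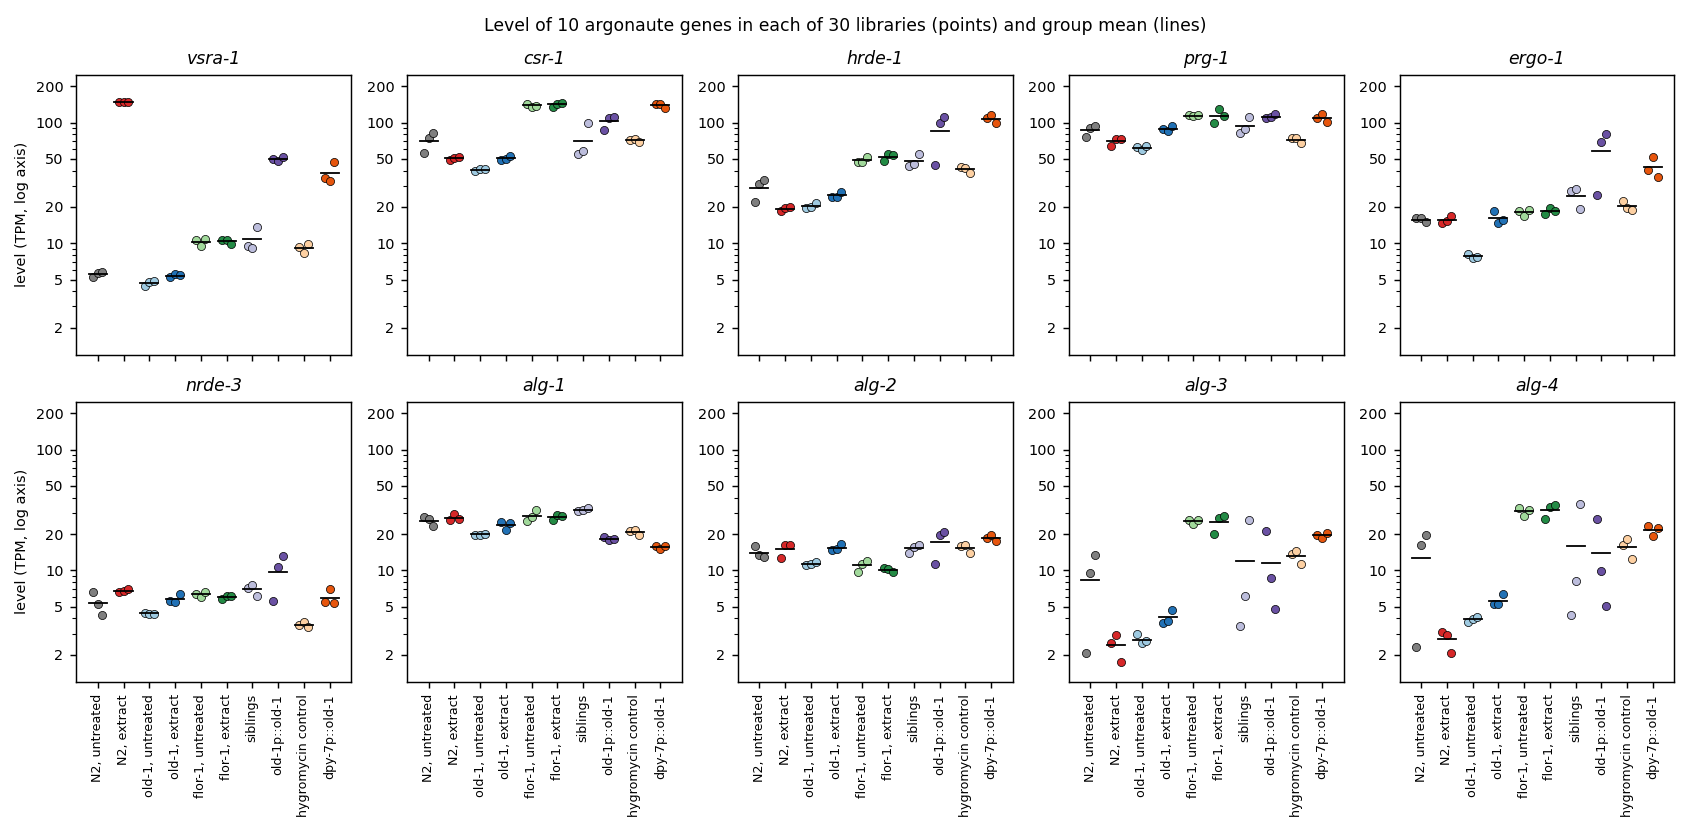
Level of each of the 10 argonaute genes (TPM, log axis) in 30 libraries, by group, with points for libraries and lines for group means (n = 3). *vsra-1* sits at 148.7 to 148.9 TPM in N2 with extract and at 4.47 to 13.7 TPM in every group without extract response or *old-1* overexpression, while *alg-3* and *alg-4* spread widely within untreated N2, the siblings and *old-1p::old-1*.

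In untreated N2, where levels can be compared per length, the order by mean TPM was *prg-1* (86.8), *csr-1* (71.0), *hrde-1* (28.8), *alg-1* (25.8), *ergo-1* (15.7), *alg-2* (14.05), *alg-4* (12.7), *alg-3* (8.31), *vsra-1* (5.59) and *nrde-3* (5.37). The libraries of *prg-1* and *csr-1* overlap, as do those of *hrde-1* and *alg-1*, and every neighbour from *ergo-1* to *nrde-3*. With extract *vsra-1* came first with 148.8 ± 0.11 TPM (SD, n = 3), ahead of *prg-1* (70.0) and *csr-1* (50.7), and none of the libraries of these 3 genes overlap. *vsra-1* made up 1.91 to 2.29% of the summed TPM of the 10 genes in untreated N2 and 40.7 to 42.9% after extract. The other 9 genes together had 225 to 297 TPM untreated and 198 to 217 TPM after extract.

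Over all 10 groups, the levels of *vsra-1* are ordered here by TPM. N2 with extract stood alone at the top, and *old-1p::old-1* followed with 49.9 ± 2.17 TPM (SD, n = 3) ahead of *dpy-7p::old-1* with 38.3 ± 8.12 TPM. The lowest *old-1p::old-1* library (47.64 TPM) lies just above the highest *dpy-7p::old-1* library (47.57 TPM). Next came the siblings (10.8 TPM), *flor-1(icb93)* with extract (10.4) and untreated (10.3) and the hygromycin controls (9.19), whose neighbours overlap. The lowest band held untreated N2 (5.59), *old-1(ok1273)* with extract (5.41), which overlap, and untreated *old-1(ok1273)* (4.72), which lies below both. Differences between untreated groups of separate experiments or genotypes were not tested here.

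*csr-1*, *hrde-1* and *prg-1*, argonautes of the germline, were called lower in N2 with extract when all libraries were fitted. With untreated N2 B and C left out their log2 fold changes were smaller, still negative and not called. In edgeR's quasi-likelihood test, a call required both a p below 0.01 and a p below 0.1 after Benjamini-Hochberg adjustment over all genes tested. Beside *vsra-1*, 6 of the other 9 argonautes were called, 1 higher (*nrde-3*) and 5 lower, against 35% of 16850 genes tested, of which 14.7% were higher and 20.4% lower. *csr-1* (IV:7957267-7962157), the essential argonaute that marks germline-expressed genes, had 55.7, 75.0 and 82.4 TPM untreated and 49.3, 51.03 and 51.7 TPM with extract. Groups do not overlap, though untreated A is closer to the extract libraries than to B and C. *csr-1* fell by 0.57 on the log2 scale (SE 0.12, adjusted p = 0.0019 in edgeR).

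*hrde-1* (III:4172337-4176159), which carries inherited silencing into germline nuclei, showed the same arrangement. Its levels were 22.2, 31.1 and 33.2 TPM untreated and 18.5, 19.8 and 19.9 TPM with extract, and it fell by 0.66 (SE 0.13, edgeR adjusted p = 0.0015). *prg-1* (I:7585329-7588367), the Piwi protein that binds piRNAs, had 76.5, 90.5 and 93.5 TPM against 64.2, 73.2 and 72.6 TPM and fell by 0.39 (SE 0.11, edgeR adjusted p = 0.0093). *ergo-1* (V:1008803-1018352), an argonaute of primary small RNAs known from oocytes and embryos, had 14.9 to 16.2 TPM untreated and 14.7 to 16.9 TPM with extract, with overlapping groups and a log2 fold change of -0.19 ± 0.08 (SE, edgeR adjusted p = 0.073), called only without extract C (-0.25) among the fits without 1 library. Without untreated N2 B and C, the log2 fold changes were -0.12 for *csr-1*, -0.17 for *hrde-1* and -0.10 for *prg-1*. The call of *prg-1* was lost without untreated N2 B (-0.35), untreated N2 C (-0.29) or extract A (-0.33) alone. With the N2 libraries fitted alone no argonaute other than *vsra-1* was called, beside 2275 of 15786 genes tested. Germline cell markers moved with these genes. Their summed level over 12 of 12 detected markers was 222, 293 and 318 TPM in untreated N2 A, B and C and 197 to 213 TPM with extract. In whole animals fewer germ cells, less RNA per germ cell and a difference in stage between libraries cannot be told apart.

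Somatic argonautes differed little. *nrde-3* (X:372235-376900), which carries small RNAs into somatic nuclei, had 6.58, 5.24 and 4.29 TPM untreated and 6.58, 6.80 and 6.98 TPM with extract, with untreated replicate A just under the lowest extract library. It rose by 0.28 (SE 0.09, edgeR adjusted p = 0.025), and its log2 fold change was 0.07 without untreated N2 B and C, where it was no longer called. Its call was lost in 5 of 6 fits without 1 N2 library, all but the one without untreated A, at 0.17 to 0.30. *alg-1* (X:13949110-13956261) and *alg-2* (II:873212-879885), the close paralogs that carry microRNAs, had log2 fold changes of 0.04 (95% interval -0.11 to 0.20) and 0.02 (-0.17 to 0.21), and their groups overlap. Reads shared by paralogs such as these are divided by the authors' counting, which makes the level of each less certain than their sum.

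**Figure D2:**
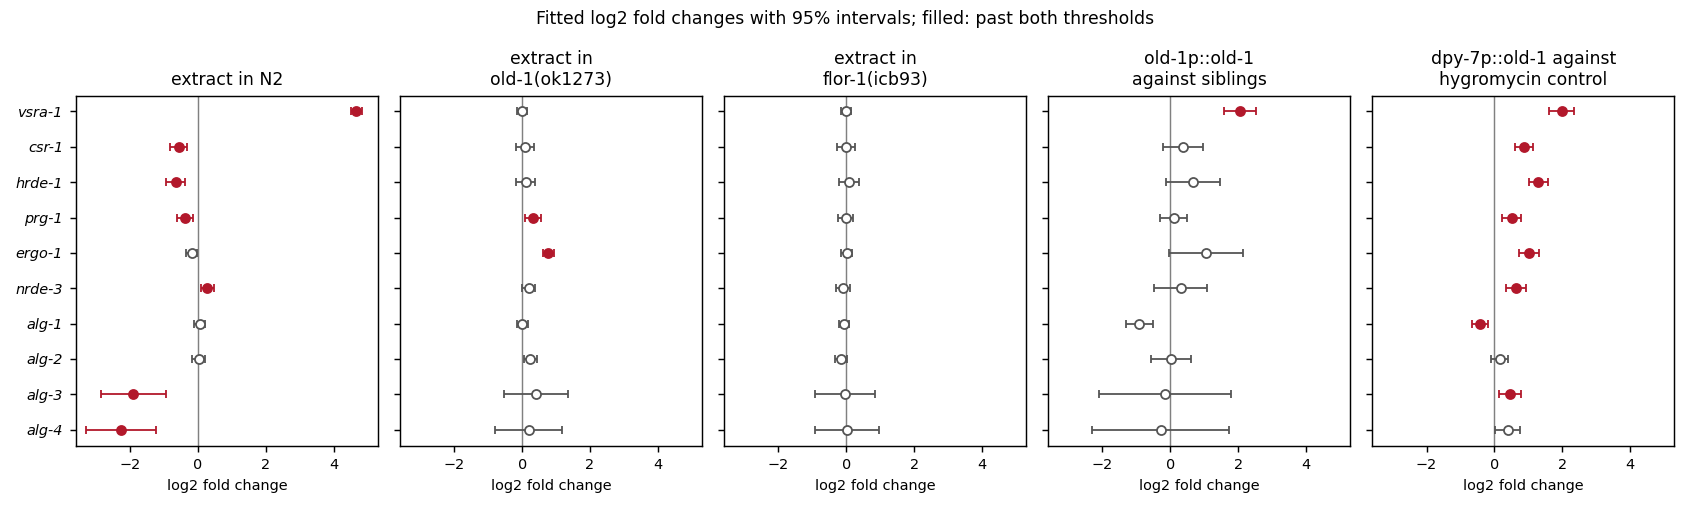
Fitted log2 fold change of each argonaute (points) with its 95% interval in 5 comparisons, filled where p was under 0.01 and the adjusted p under 0.1. *vsra-1* lies at 4.66 in N2 with extract, near 0 in both mutants with extract, and at 2.05 and 1.97 in the overexpression strains, and the intervals of *alg-3* and *alg-4* are the widest in the extract and *old-1p::old-1* panels.

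The sperm argonautes *alg-3* (IV:11704246-11708264) and *alg-4* (III:9887209-9891424), paralogs that act in spermatogenesis, had the widest relative spread of the 10 genes among the untreated N2 libraries. *alg-3* had 2.08, 9.47 and 13.4 TPM in untreated N2 A, B and C and 1.74 to 2.92 TPM with extract. *alg-4* had 2.34, 16.2 and 19.5 TPM against 2.07 to 3.08 TPM. Untreated replicate A falls inside the range of the extract libraries for both genes, so the groups overlap. They fell by 1.91 (SE 0.45, edgeR adjusted p = 0.0036) and 2.27 (SE 0.49, adjusted p = 0.0020) with all libraries, and without untreated N2 B and C the log2 fold changes were 0.22 and 0.22, with the opposite sign and not called.

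Across all 30 libraries, *alg-3* and *alg-4* followed the spermatogenesis markers. Pearson's r with the mean log2 CPM (counts scaled by library total only) of 13 spermatogenesis genes was 0.98 for both, over libraries that share groups, stages and batches, and r was 0.90 for *csr-1*, 0.64 for *hrde-1*, 0.60 for *prg-1*, -0.16 for *vsra-1* and -0.42 for *nrde-3*. With 12 germline cell markers, r was 0.92 for *csr-1* and for *hrde-1*, 0.77 for *prg-1*, 0.76 for *ergo-1*, 0.18 for *vsra-1* and -0.66 for *alg-1*. With the spermatogenesis markers, *vsra-1* had the r nearest to 0 of the 10 genes. These correlations are descriptions, with no test.

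**Figure D3:**
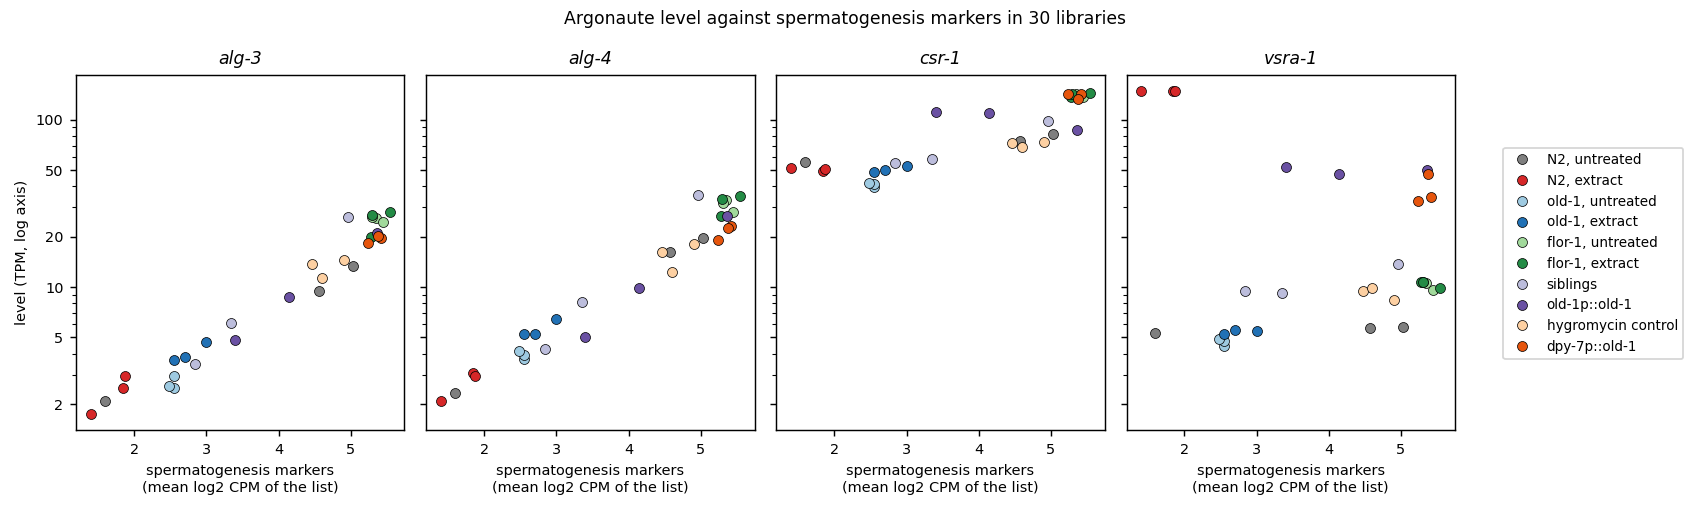
Level of 4 argonautes (TPM, log axis) against the mean log2 CPM of 13 spermatogenesis genes in 30 libraries, coloured by group. *alg-3* and *alg-4* rise along the axis (r = 0.98), untreated N2 libraries appear at both low and high marker levels, and *vsra-1* (r = -0.16) is set by group, with the N2 extract libraries at the top left and the overexpression strains above their controls.

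*csr-1* gave a finer view, since its transcripts differed in the same libraries. The files hold 3 transcripts: F20D12.1a.1 (3662 bases), F20D12.1a.2 (3599 bases) and the shorter F20D12.1b.1 (2604 bases). F20D12.1a.1 had 7.30, 25.2 and 28.0 TPM in untreated N2 A, B and C and 4.92 to 7.39 TPM with extract. In the same libraries F20D12.1a.2 had 28.3 to 33.3 TPM and 29.5 to 31.4 TPM, and F20D12.1b.1 had 15.1, 21.5 and 25.03 TPM in untreated A, B and C and 12.9 to 15.3 TPM with extract. The a.1 and b.1 transcripts were thus both higher in untreated B and C than in A, and a.2 was not set apart in that way.

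In the other strains the a.1 transcript again set apart libraries of the same label. It had 37.0, 6.70 and 2.56 TPM in *old-1p::old-1* A, B and C, and 10.2, 8.53 and 40.1 TPM in the siblings. F20D12.1a.2 went the other way in *old-1p::old-1*, lowest in A (22.8 TPM) and highest in C (64.8 TPM). In the siblings F20D12.1a.2 ran from 24.5 to 28.9 TPM. The highest libraries, *old-1p::old-1* A and sibling C, are those with the most *alg-3* and *alg-4* in their groups. F20D12.1a.1 made up 42.9% of *csr-1* TPM in *old-1p::old-1* A and 2.32% in C. Its r with the spermatogenesis markers was 0.73 and with the germline markers 0.26 over 30 libraries, where F20D12.1b.1 had 0.84 and 0.93. The split between transcripts of 1 gene is an estimate of the authors' counting, and *csr-1* shares 438 exon bases on its strand with *frpr-10*, which reached at most 0.796 TPM in any library.

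**Figure D4:**
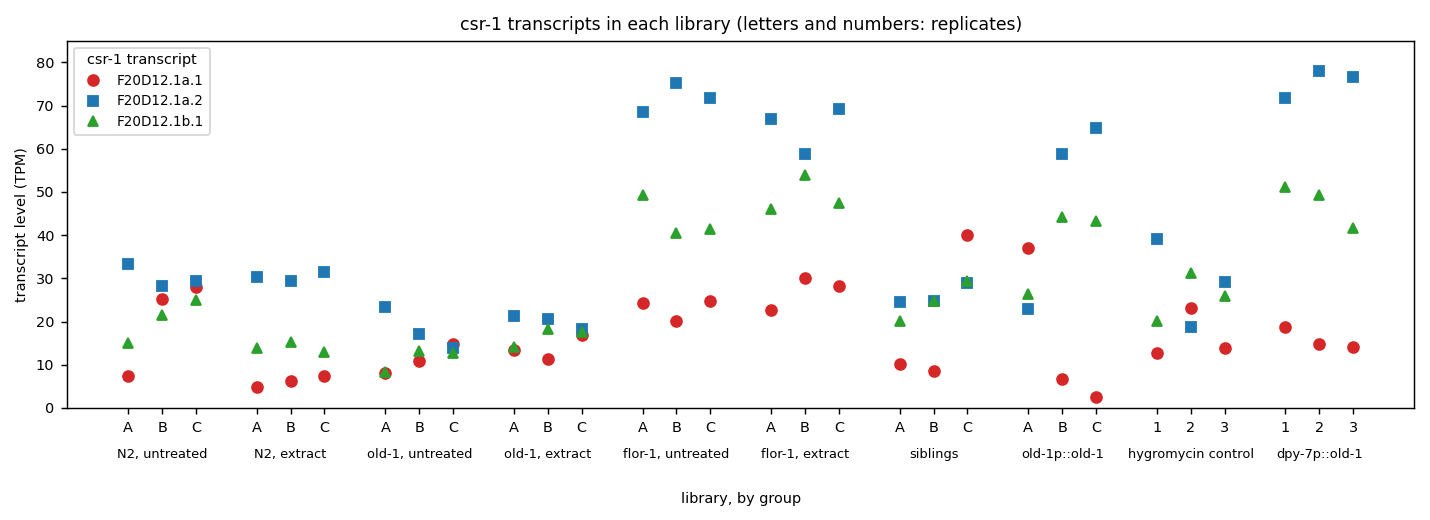
Level (TPM) of the 3 *csr-1* transcripts in each library, by group. F20D12.1a.1 (circles) ranges from 7.30 to 28.0 TPM among untreated N2 libraries and from 2.56 to 37.0 TPM among *old-1p::old-1* libraries. F20D12.1a.2 (squares) stays between 28.3 and 33.3 TPM in N2 with or without extract and ranges from 22.8 to 64.8 TPM among *old-1p::old-1* libraries.

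The mutant comparisons ask whether the receptor kinase *old-1* and the pseudokinase *flor-1* are needed for the argonaute response. In *old-1(ok1273)* with extract *vsra-1* had 5.24, 5.54 and 5.44 TPM against 4.47, 4.77 and 4.91 TPM untreated. These TPM ranges do not overlap, but in CPM, closer to the scale of the test, the groups overlapped, with a log2 fold change of -0.00 ± 0.07 (SE, edgeR adjusted p = 0.98, 95% interval -0.15 to 0.14). The 2 scales differ in this mutant, since the median over all genes was -0.01 on the count scale and 0.16 on log2(TPM + 1), and changes in *old-1(ok1273)* are given on the count scale. In *flor-1(icb93)* *vsra-1* had 10.7, 10.6 and 9.84 TPM with extract and 10.6, 9.54 and 10.8 TPM without, with a log2 fold change of -0.01 ± 0.07 (95% interval -0.14 to 0.13).

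In *old-1(ok1273)* with extract 2 of the 10 argonautes were called, *ergo-1* and *prg-1*, both higher, a share below the 24% of all genes called (12.7% higher, 11.3% lower). *ergo-1* had 8.23, 7.504 and 7.76 TPM untreated and 18.4, 14.7 and 15.5 TPM with extract, with no overlap, and rose by 0.77 (SE 0.08, edgeR adjusted p = 4.5e-06). Untreated *old-1(ok1273)* held the lowest *ergo-1* levels of all groups. *prg-1* had 62.8, 59.8 and 63.5 TPM untreated and 88.5, 85.7 and 93.1 TPM with extract and rose by 0.32 (SE 0.11, edgeR adjusted p = 0.040). That call was lost whenever any of the 6 libraries was left out, when its log2 fold change ran from 0.29 to 0.35, and *alg-2*, not called with all libraries (0.24), was called without extract A (0.30). Oocyte and yolk markers summed to 25.9 to 27.8 TPM untreated and 32.5 to 36.5 TPM with extract, and spermatogenesis markers to 229.6 to 244 and 250.5 to 376 TPM. Germline cell markers moved with *ergo-1* and *prg-1*: on the count scale 5 of 12 were called higher and 0 lower. Their sum was 166.8 to 177.6 TPM untreated and 229.4 to 241.1 TPM with extract, without overlap. Somatic sums also rose without overlap for body wall muscle (3424 to 3619 against 3836 to 3889 TPM), neuron (244 to 252 against 262 to 272) and epidermis markers (3372 to 3607 against 3669 to 4129). Intestine sums overlapped. The part of these tissues and of the TPM scale in these changes was not tested.

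In *flor-1(icb93)*, none of the 10 argonautes was called, against 0% of all genes. edgeR gave no call at all, although 644 of 16850 genes had an unadjusted p under 0.05, of which 0 were argonautes. DESeq2 called 34 genes and limma 0, none of them an argonaute. The log2 fold changes ran from -0.16 to 0.08. Spermatogenesis markers summed to 2293 to 2495 TPM untreated and 2345 to 2802 TPM with extract, with overlapping groups.

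Tested directly as a difference of responses, the mutants departed from N2. Both tests use the same N2 libraries, so they are not independent of each other, and for *vsra-1* they contain the contrast for which it was chosen. The response of *vsra-1* was lower than in N2 by 4.66 ± 0.10 (SE, log2 scale) in each mutant, given as a description. Of the other 9 argonautes, the responses of 6 differed from N2 in *old-1(ok1273)*, against 31.1% of all genes (18% higher, 13.1% lower), and those of 4 in *flor-1(icb93)*, against 23.9% (14.4% higher, 9.48% lower). All of these differences were positive, that is, the response was higher in the mutant than in N2. For *old-1(ok1273)* they were 0.66 for *csr-1*, 0.76 for *hrde-1*, 0.71 for *prg-1*, 0.96 for *ergo-1*, 2.32 for *alg-3* and 2.46 for *alg-4*. For *flor-1(icb93)* they were 0.57 for *csr-1*, 0.74 for *hrde-1*, 1.87 for *alg-3* and 2.29 for *alg-4*. The adjusted p in edgeR ran from 2.4e-05 (*ergo-1*) to 0.011 in *old-1(ok1273)* and from 0.013 (*hrde-1*) to 0.034 in *flor-1(icb93)*. In *flor-1(icb93)* the call of *csr-1* was lost in 6 of 12 fits without 1 library, that of *alg-3* in 9 of 12 and that of *alg-4* in 2 of 12, with the lowest values all without untreated N2 C (0.40, 1.27 and 1.75), while without untreated N2 A *prg-1* (0.48) and *nrde-3* (-0.51) were called too, and *prg-1* also without *flor-1(icb93)* extract A (0.46). Without untreated N2 B and C, the calls in *old-1(ok1273)* were 3 (*vsra-1*, *prg-1* at 0.43 and *ergo-1* at 0.87) and in *flor-1(icb93)* only *vsra-1*.

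Overexpression of *old-1* without extract asks whether the kinase alone raises *vsra-1*. In *old-1p::old-1* animals *vsra-1* had 50.05, 47.6 and 52.0 TPM, and in their siblings 9.49, 9.20 and 13.7 TPM, with no overlap and a ratio of means of 4.62. It rose by 2.05 (SE 0.20, edgeR adjusted p = 0.044) and was the only argonaute called, against 0.117% of 16285 genes (0.0921% higher, 0.0246% lower). Oocyte, yolk and spermatogenesis markers differed between the 3 transgenic libraries, whose *vsra-1* levels ran from 47.6 to 52.0 TPM. They also differed between sibling C, which had the highest *vsra-1* of the controls (13.7 TPM), and the other siblings. The part of these tissues in the level of *vsra-1* was not tested. The call was lost without *old-1p::old-1* B or C or sibling A or B, while the log2 fold change stayed between 1.87 and 2.21 in all 6 fits without a library, and DESeq2 gave an adjusted p of 1.7e-15.

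Among the other argonautes of this experiment, the libraries of each group spread widely. *ergo-1* had 25.2, 68.4 and 80.4 TPM in *old-1p::old-1* A, B and C and 27.2, 28.2 and 19.3 TPM in the siblings. *hrde-1* had 44.5, 99.4 and 112 TPM against 43.7, 45.3 and 54.8 TPM. Replicate A, with the fewest oocyte and yolk transcripts of the 3, lies with the siblings for both genes, and without it both were called higher, *ergo-1* at 1.27 and *hrde-1* at 0.80. *alg-1* had 18.99, 17.8 and 18.1 TPM against 30.8, 31.5 and 32.9 TPM, with no overlap, a log2 fold change of -0.91 ± 0.17 (SE) and an edgeR adjusted p of 0.13. DESeq2 called it, with an adjusted p of 0.00014, as did edgeR without *old-1p::old-1* A (-1.16). For *alg-3* and *alg-4* the order of the libraries was reversed, with 21.0 and 26.4 TPM in replicate A and 4.81 and 5.06 TPM in replicate C.

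Expression of *old-1* from the epidermal *dpy-7* promoter came with higher levels of 7 of the 10 argonautes. *vsra-1* had 34.7, 32.6 and 47.6 TPM against 9.41, 8.36 and 9.80 TPM in the hygromycin controls, with no overlap. It rose by 1.97 (SE 0.16, edgeR adjusted p = 1.9e-05), the largest change of the 10, and in this comparison 8 of 10 argonautes were called, against 45.8% of 16141 genes (24.9% higher, 20.9% lower). *hrde-1* followed, with 109, 114.8 and 98.4 TPM against 43.2, 42.1 and 37.99 TPM and a rise of 1.29 (SE 0.13, adjusted p = 4.5e-05).

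*csr-1* had 141.6, 142.03 and 132 TPM against 72.1, 73.1 and 68.9 TPM and rose by 0.87 (SE 0.12, edgeR adjusted p = 0.00030). *ergo-1* rose by 1.01 (SE 0.13), *nrde-3* by 0.64 (SE 0.14), *prg-1* by 0.50 (SE 0.12) and *alg-3* by 0.46 (SE 0.14), the last with overlapping groups in CPM. The call of *alg-3* was lost without *dpy-7p::old-1* replicate 1 or 3 or control 1 or 3 (0.35 to 0.45), and that of *prg-1* without *dpy-7p::old-1* replicate 1 (0.46) or control 3 (0.44). *alg-1* was the exception, with 16.002, 15.003 and 15.97 TPM against 21.3, 21.5 and 19.5 TPM, and fell by 0.43 (SE 0.10, adjusted p = 0.0058). *alg-2* and *alg-4* were not called, at 0.15 (95% interval -0.10 to 0.41) and 0.39 (0.03 to 0.74), and *alg-4* was called without *dpy-7p::old-1* replicate 2 (0.52) or control 2 (0.58). In both overexpression experiments *alg-1* libraries of transgenic animals lay below all controls and *vsra-1* libraries above. Somatic markers were lower beside *alg-1* in *dpy-7p::old-1*, where 6 of 6 body wall muscle markers (summed level 3357 to 3538 TPM against 5381 to 5816 TPM), 5 of 6 intestine markers (2365 to 3064 against 3941 to 4605 TPM), 2 of 7 neuron markers and 2 of 7 epidermis markers were called lower and 1 epidermis marker higher. In *old-1p::old-1* none of the somatic markers was called, where only 0.117% of all genes were. Intestine markers summed to 1846 to 2348 TPM against 3183 to 3972 TPM, without overlap. The sums overlapped for epidermis (534 to 2540 against 2512 to 3220 TPM), body wall muscle (2299 to 4500 against 3490 to 4311) and neuron markers (249 to 370 against 242 to 287). The part of these tissues in the level of *alg-1* was not tested.

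Germline markers moved with the argonautes of the *dpy-7p::old-1* animals. All 12 germline cell markers were called higher, and their summed level was 775 to 877 TPM against 326 to 353 TPM in the controls. For the spermatogenesis list 8 of 13 were higher (3032 to 3431 TPM against 1409 to 1698), and for oocyte and yolk genes 8 of 14, with overlapping sums (7271 to 11284 against 8109 to 12640). With the oocyte and yolk marker mean as a covariate, an alternative chosen after seeing the data that leaves 3 residual degrees of freedom, only *vsra-1* (2.42) and *hrde-1* (0.92) were still called. The lost calls had 0.62 for *csr-1*, 0.67 for *ergo-1*, 0.13 for *prg-1*, 0.09 for *nrde-3*, 0.23 for *alg-3* and -0.42 for *alg-1*. The part of the germline and of yolk gene expression in the other rises was not tested.

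The rest of the small RNA machinery was read from 84 genes in 9 lists, of which 80 were tested. In N2 with extract 8 were higher (10%, against 14.7% of all genes) and 21 lower (26.2%, against 20.4%). Their median change was -0.11 on the log2 scale, beside -0.01 over all genes. Without untreated N2 B and C, 8 of 80 were higher and 2 lower, against 8.07% and 6.91% of all genes, with a median of -0.01. Germline cell markers (6 of 12) and spermatogenesis markers (13 of 13) were lower in N2 beside these genes with all libraries, and their part was not tested. *rrf-2*, an RNA-dependent RNA polymerase, had 2.29, 1.82 and 1.60 TPM untreated and 9.38, 9.78 and 9.35 TPM with extract and rose by 2.23 (SE 0.10, edgeR adjusted p = 2.2e-10). *sid-5*, needed for RNA silencing to spread between cells, had 17.6, 18.9 and 17.8 TPM against 52.3, 39.7 and 41.8 TPM and rose by 1.21 (SE 0.14, adjusted p = 1.2e-05). *rde-1*, the argonaute that starts silencing by foreign double-stranded RNA, had 16.9, 11.4 and 11.4 TPM against 22.03, 22.5 and 22.4 TPM and rose by 0.69 (SE 0.10, adjusted p = 1.0e-04).

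These 3 genes were picked after their values in N2 were seen. Without untreated N2 B and C they rose by 2.05 (*rrf-2*), 1.35 (*sid-5*) and 0.42 (*rde-1*). In *old-1(ok1273)* with extract their log2 fold changes were 0.13, -0.37 and 0.13 and in *flor-1(icb93)* 0.02, 0.05 and 0.09, none called. The differences from the N2 response were called for all 3 in both mutants. These tests contain the N2 contrast in which the genes were picked. They gave -2.10 and -2.21 for *rrf-2*, -1.57 and -1.16 for *sid-5* and -0.57 and -0.60 for *rde-1*. The *rde-1* call in *old-1(ok1273)* was lost without untreated N2 B and C (-0.29). Among other small RNA genes, *rde-12* (0.38 and 0.26) and *nhl-2* (0.31 and 0.37) were called higher both in N2 and in *old-1(ok1273)*. Neither was called in *flor-1(icb93)*. *wago-4*, a germline argonaute of inherited silencing, fell by 1.18 (SE 0.20, adjusted p = 0.00044), from 13.8, 23.4 and 27.9 TPM to 9.06, 10.3 and 11.3 TPM, and fell by 0.41 without B and C, still called.

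**Figure D5:**
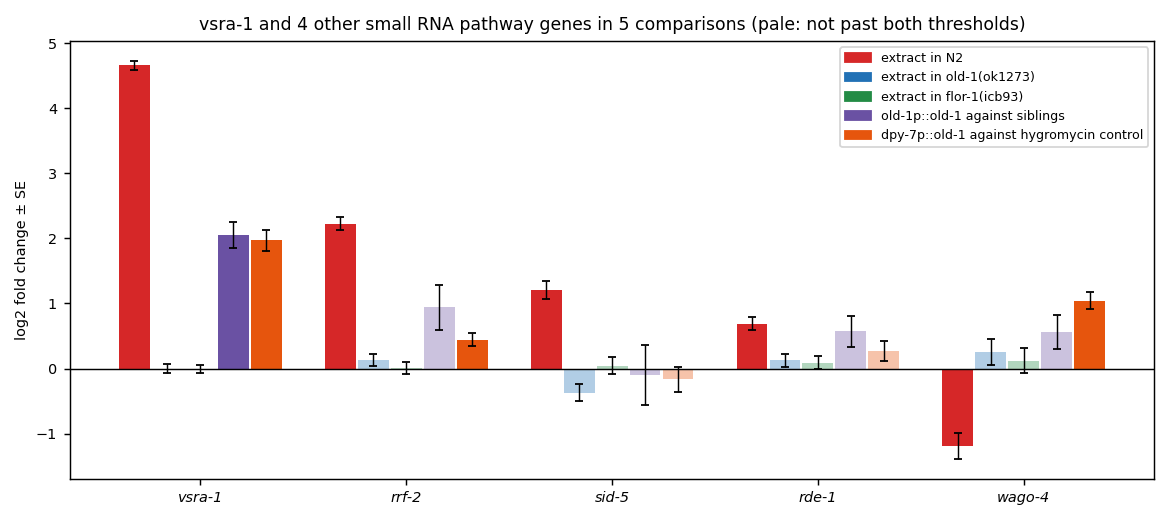
Fitted log2 fold change ± SE of *vsra-1* and of 4 other small RNA genes, picked for display after their values were seen, in 5 comparisons, pale where not called. *rrf-2*, *sid-5* and *rde-1* rise with *vsra-1* in N2 with extract (2.23, 1.21 and 0.69 beside 4.66) and stay at or below 0.13 in both mutants, and of these 3 only *rrf-2* is called in *dpy-7p::old-1* (0.45).

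In N2 with all libraries, 7 of 9 P granule genes were lower (median -0.46), among them *deps-1* (-0.77), *mip-1* (-0.55) and *glh-4* (-0.47). Of 10 mutator focus genes 2 were lower, *mut-14* (-0.41) and *mut-16* (-0.36), of 8 nuclear RNAi genes 3, with *nrde-4* (-0.30), *nrde-2* (-0.16) and *hrde-2* (-0.38), and of 14 piRNA biogenesis genes 2, *simr-1* (-0.51) and *prde-1* (-0.21). None of those lists held a gene that was higher, and the shares of the mutator and piRNA lists are at or below the 20.4% of all genes called lower. None of the genes of these 4 lists was called without untreated N2 B and C, with -0.20 for *deps-1*, -0.17 for *mip-1*, -0.11 for *glh-4* and for *mut-14*, -0.07 for *mut-16*, -0.16 for *nrde-4*, -0.19 for *nrde-2*, -0.04 for *hrde-2*, -0.24 for *simr-1* and -0.13 for *prde-1*. Among other argonautes, *ppw-1* (0.32) was higher beside *rde-1*, and *wago-1* (-0.52) and *wago-10* (-1.55) lower beside *wago-4*. The microRNA list was split, with *ain-2* (0.43) and *nhl-2* (0.31), which work with microRNA argonautes, higher and *cgh-1* (-0.98) and *tsn-1* (-0.29) lower. In the fit without untreated N2 B and C *ppw-1* (0.51), *ain-2* (0.31) and *nhl-2* (0.25) were still called, and *wago-1* (-0.09), *wago-10* (0.15), *cgh-1* (-0.16) and *tsn-1* (-0.15) were not.

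In *old-1(ok1273)* with extract the lists leaned upward, with 28 of 80 genes higher (35%, against 12.7% of all genes), 3 lower (3.75%, against 11.3%) and a median of 0.17 against -0.01 over all genes. Germline cell markers leaned the same way, with 5 of 12 higher, 0 lower and a median of 0.23, and their part was not tested. Called higher were 3 of 4 RNA-dependent RNA polymerases (*rrf-3* at 0.40, *rrf-1* at 0.28 and *ego-1* at 0.41) but not *rrf-2*. The Dicer and ERI list had 4 of 8, with *drh-3* (0.65), *dcr-1* (0.53) and *eri-3* (0.53), and the nuclear RNAi list 4 of 8, with *nrde-2* (0.87), *set-25* (0.57) and *met-2* (0.41). In *flor-1(icb93)* with extract and in *old-1p::old-1* none of the 80 was called, with medians of 0.05 and 0.57 against 0.01 and 0.11 over all genes, and without *old-1p::old-1* A 30 were higher and 1 lower, against 9.51% and 13.2% of all genes.

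In *dpy-7p::old-1* 63 of 80 were higher (78.8%, against 24.9% of all genes) and 4 lower (5%, against 20.9%), with a median of 0.74 against -0.09, and all 12 germline cell markers were higher too. With the oocyte and yolk covariate 15 were higher and 1 lower, against 6.6% and 5.56% of all genes. The mutator focus list was higher for 10 of 10 genes (*mut-2* at 1.24, *mut-7* at 0.91) and the piRNA biogenesis list for 14 of 14 (*tofu-6* at 1.25, *tofu-5* at 1.16). Among other argonautes 6 of 10 were higher, led by *alg-5* (1.47), *wago-1* (1.11) and *wago-4* (1.04), and 1 was lower, *sago-1* (-0.89). *rrf-2* rose by 0.45 (SE 0.10, edgeR adjusted p = 0.0050), *sid-5* and *rde-1* were not called (-0.17 and 0.26), and *sid-2*, which takes up RNA from the gut, was lower (-0.55).

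The genes most like *vsra-1* over the 10 group means, out of 14952 compared by Pearson's r of log2 CPM, were *C06E4.8* (0.99), *Y47G7B.2* (0.98), *sli-1* (0.97), *atg-18* (0.97) and *F09C6.12* (0.97). *F09C6.12* had 0.623 CPM in untreated N2, 42.9 CPM in N2 with extract, 4.08 CPM in *old-1p::old-1* and 7.09 CPM in *dpy-7p::old-1*, and 0.271 to 1.06 CPM in the other 6 groups. *C06E4.8* had 13.4 CPM in N2 with extract, 4.20 and 4.19 CPM in the 2 overexpression strains and 0.778 to 1.12 CPM elsewhere. *sli-1*, a ubiquitin ligase that restrains receptor tyrosine kinase signalling, had 24.2 CPM in untreated N2 and 51.3 CPM with extract, and *atg-18*, an autophagy gene, 70.8 and 163 CPM. Over the 30 libraries, r of these 5 genes ran from 0.86 for *atg-18* to 0.95 for *C06E4.8*. Compared genes needed a mean of 1 CPM only in the group where they were highest. For the other 9 argonautes, r with *vsra-1* over the 10 groups ran from -0.31 for *alg-4* to 0.55 for *nrde-3*. The 5 genes were picked for the highest r, so lower values of the argonautes follow from that choice. With 10 points set by the same few groups, r is a description of likeness only.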

How the data were processed

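The authors counted reads with kallisto (named in the submitters' processing notes with sleuth) on the WormBase WS283 transcriptome. The deposited files hold estimated counts per transcript, not normalized, with lengths and effective lengths. Of 37058 transcripts, 30413 were assigned to genes of Ensembl release 115 (WBcel235) by name and 6630 by sequence name. Estimated counts were summed per gene and rounded. Genes with few counts were removed by filterByExpr at a min.count of 5 and a min.total.count of 15. TMM factors and quasi-likelihood tests came from edgeR 4.0.16 in R 4.3.3, with 18 libraries in the extract fit and 6 in each overexpression fit (12, 4 and 4 residual degrees of freedom). TPM was computed from counts and effective lengths. Kallisto divides reads between paralogs. The scripts were tested on simulated counts. Members, lists and comparisons were chosen with earlier results of these data known. Named were the members, up to 3 called genes per list, direction and comparison with the smallest adjusted p, and the 5 genes most like *vsra-1*. Alternatives were DESeq2 1.42.0, RLE factors, no filter, a replicate block, limma 3.58.1 on log2(TPM + 1), only the compared groups, an oocyte and yolk covariate, each library left out, and untreated N2 B and C left out. The covariate in the overexpression fits was chosen after seeing the data. Sequences were not used here.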

Additional observations from a re-analysis of the deposited data

Results flagged for a closer look

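For 12 results, the response to extract differed between a mutant and N2 by the test of the difference itself (edgeR), always with the same N2 libraries. The difference in log2 fold change, mutant minus N2, was -4.66 for *vsra-1* in the *old-1* mutant and -4.66 in the *flor-1* mutant, a description since the gene was chosen for its N2 response. In *old-1(ok1273)* it was 0.66 for *csr-1*, 0.76 for *hrde-1*, 0.71 for *prg-1*, 0.96 for *ergo-1*, 2.32 for *alg-3* and 2.46 for *alg-4*. In *flor-1(icb93)* it was 0.57 for *csr-1*, 0.74 for *hrde-1*, 1.87 for *alg-3* and 2.29 for *alg-4*. Without untreated N2 B and C, the libraries with 289 and 474 TPM of oocyte and yolk markers against 36.0 in replicate A, *vsra-1* (-4.84), *prg-1* (0.43) and *ergo-1* (0.87) were still called in *old-1(ok1273)* and *vsra-1* alone (-4.85) in *flor-1(icb93)*.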

How the results depend on the processing

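The log2 fold change of *vsra-1* in N2 with extract kept its direction under every alternative (4.51 to 4.86), a description since the gene was chosen for it. In *dpy-7p::old-1* it kept direction and call under every alternative (1.78 to 2.42), and in *old-1p::old-1* its direction (1.87 to 2.21). Among the argonautes, *vsra-1* and the members called in any fit of a comparison were followed. Of their 665 fold changes under alternatives, 537 kept direction and call, 81 lost the call, 24 gained one and 23 changed sign. Of other small RNA genes only the named ones were followed, all called with all libraries, so none could gain a call. Of their 2040 fold changes 1754 kept direction and call, 280 lost the call and 6 changed sign.

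Counts of argonautes in N2 and for the differences from N2 include *vsra-1*, which was chosen for its N2 response. With the oocyte and yolk covariate, argonautes called fell from 7 to 1 in N2, from 7 to 2 and from 5 to 1 for the differences of *old-1(ok1273)* and *flor-1(icb93)* from N2 and from 8 to 2 in *dpy-7p::old-1*, and went from 2 to 4 in *old-1(ok1273)* and from 1 to 2 in *old-1p::old-1*. Genes called went to 2447, 3381, 1959, 1964, 6 in *flor-1(icb93)* and 1969 in *old-1p::old-1*. Without untreated N2 B and C, argonautes called were 1, 3 and 1 in N2 and the differences of *old-1(ok1273)* and *flor-1(icb93)*, with 2608 genes in N2 and 2096 in the last. With only the compared groups they were 1 in N2 (2275 genes), 4 in *old-1(ok1273)* and 2 in the *flor-1(icb93)* difference, with 33 genes in *flor-1(icb93)*. DESeq2 called 34 genes in *flor-1(icb93)*, and 1451 genes and 2 argonautes in *old-1p::old-1*. limma on log2(TPM + 1) called 6 argonautes in *old-1(ok1273)*, 3 argonautes and 2436 genes for the *flor-1(icb93)* difference and 45 genes in *old-1p::old-1*. On that scale the median over all genes was 0.16, 0.12 and 0.27 in *old-1(ok1273)*, its difference from N2 and *old-1p::old-1*, and 88.0% of calls in *old-1(ok1273)* were higher against 52.8% on counts (N2 54.3% against 41.9%, *dpy-7p::old-1* 64.6% against 54.3%, the differences 70.5% against 57.8% and 40.2% against 60.3%, *old-1p::old-1* 91.1% against 79.0%, and 39.0% in DESeq2).

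Replicate numbers were shared by the groups, and same-numbered libraries correlated at -0.43 to 0.27. With 3 libraries a group these values cannot show whether the numbers pair libraries, and the fits above did not pair them. With the replicate as a block, 0 argonautes and 0 genes were called in *old-1p::old-1*, where *vsra-1* was 2.07 with an adjusted p of 0.38, and in N2 the call of *nrde-3* was lost.

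Leaving out 1 library at a time, argonautes called ran from 5 to 7 in N2 (4394 to 7692 genes), 1 to 2 in *old-1(ok1273)* (3291 to 3715), 0 to 0 in *flor-1(icb93)* (0 to 1), 7 to 7 and 2 to 7 for the differences (4338 to 7112 and 2889 to 6269), 0 to 4 in *old-1p::old-1* (0 genes without sibling B to 3753 without *old-1p::old-1* A) and 6 to 9 in *dpy-7p::old-1* (5714 to 7036).

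Signs changed, with the covariate and without untreated N2 B and C, for *alg-3* (0.31 and 0.22), *alg-4* (0.27 and 0.22), *wago-10* (0.20 and 0.15) and *ego-1* (0.039 and 0.023) in N2, for the *flor-1(icb93)* difference of *alg-3* (-0.35 and -0.27), *alg-4* (-0.26 and -0.21) and *wago-10* (-0.21 and -0.18), and for the *old-1(ok1273)* difference of *alg-4* (-0.36 and -0.024) and, with the covariate, *alg-3* (-0.16). Values near 0 that changed sign were *vsra-1* in *old-1(ok1273)* (0.0018 with DESeq2, 0.0032 with RLE factors, 0.0035 unfiltered, 0.17 with limma, -0.041 to 0.044 without 1 library) and in *flor-1(icb93)* (0.013 with limma, -0.037 to 0.012), and *alg-1* in *old-1(ok1273)* (-0.028 to 0.057). The causes of these changes were not tested. With 3 libraries a group, and 4 residual degrees of freedom in each overexpression fit, small changes were not detectable, and a lone library left in a group is assumed to vary like the others.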
